A study of Mus musculus with 2 samples.

Results

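The Nr4a genes encode the orphan nuclear receptors Nur77 (Nr4a1), Nurr1 (Nr4a2) and Nor1 (Nr4a3), and open chromatin around them was described in OT-I CD8+ T cells activated with or without TAMos. The genes were taken by name, 3 of 20780 protein-coding genes on chromosomes 1 to 19. A peak was assigned to one of them when its summit, the base of highest coverage, lay closer to a start site of that gene than to any other protein-coding start site and within 100 kb of it. This gave 50 of 127423 vehicle peaks and 62 of 179414 TAMo peaks. Overlapping peaks of both lists were joined into 65 of 190617 regions, of which 38 had a peak in both lists, 8 in the vehicle list only and 19 in the TAMo list only. Of the 65 regions, 13 lay within 1 kb of a protein-coding start site, 17 in introns, 2 in exons of noncoding genes and 33 between genes. At the outer limit, the farthest region inside lay 97369 bp from Nr4a3, with 87 vehicle reads and 46 TAMo reads, and the nearest one outside lay 121509 bp from it, with a TAMo peak of 31 reads.

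The measurement was ATAC-seq, in which a transposase cuts accessible DNA and tags it for sequencing. OT-I cells carry a transgenic T cell receptor for an ovalbumin peptide; the labels give their genotype as WT. Both groups received that peptide for 48 h, and about 50000 sorted CD8+ T cells went into each library. The vehicle group was cultured with vehicle, and the TAMo group with TAMos, which are CD11b+Ly6G-Ly6Chigh cells purified from spleens of mice carrying LLC (Lewis lung carcinoma) tumours. Each group was 1 library, so no difference has a replicate check and none was tested. Whether cells of several animals were pooled is not given in the sources used here, and there was no group of resting T cells.

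NR4A receptors are transcription factors that act without a known hormone in most settings and bind DNA at the NBRE element. In T cells their genes are immediate early genes, switched on within a short time of receptor stimulation through calcium, calcineurin and kinase signalling. Nr4a1 is widely used as a reporter of T cell receptor signal strength in mice, and in mouse CD8+ T cells the NR4A factors are known for roles in tolerance and exhaustion. CREB family factors, which bind the cyclic AMP response element (CRE), and MEF2 factors are known regulators of Nr4a1.

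The promoter sequences are shown because the strongest start-site summits of Nr4a1 and Nr4a3 and that of the upstream Nr4a2 start fall inside them. They come from the RefSeq promoter table (GRCm38.p6, the assembly also called mm10), which held all 3 genes. Each reads 5′ to 3′ on the strand of its gene, and capitals mark the CRE core TGACG or its reverse complement. The Nr4a3 stretch is shorter, to leave out most of the transcribed sequence.
Nr4a1, chr15:101266596-101266845, plus strand: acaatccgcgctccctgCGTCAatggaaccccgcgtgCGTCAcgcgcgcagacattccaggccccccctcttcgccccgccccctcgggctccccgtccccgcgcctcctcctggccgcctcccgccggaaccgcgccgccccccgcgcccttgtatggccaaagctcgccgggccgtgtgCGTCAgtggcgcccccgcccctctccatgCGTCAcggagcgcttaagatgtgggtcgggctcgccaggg
Nr4a2, chr2:57124004-57124253, minus strand: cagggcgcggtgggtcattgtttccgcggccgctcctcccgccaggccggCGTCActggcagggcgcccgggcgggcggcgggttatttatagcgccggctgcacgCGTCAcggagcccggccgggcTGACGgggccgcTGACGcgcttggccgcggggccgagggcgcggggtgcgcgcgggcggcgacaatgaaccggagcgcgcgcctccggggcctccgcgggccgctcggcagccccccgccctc
Nr4a3, chr4:48045055-48045107, plus strand: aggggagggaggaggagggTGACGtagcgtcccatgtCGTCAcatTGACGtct

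Each of the 3 genes had 4 CRE cores in the 250 bases before its start in the RefSeq promoter table, counted on both strands. Of 31396 RefSeq promoter windows of the same length on chromosomes 1 to 19, 17.9% held at least 1 CRE core and 0.143% held 4 or more. For Nr4a3 that table start, 48045305, lies after the start site at 48045153 used below. Part of its window is therefore transcribed. The stretch shown ends at 48045107, before 48045153, and was cut 30 bases after the outermost RefSeq transcript start. Of the 4 Nr4a3 cores, 3 are in the stretch shown, and the other, at 48045160, lies after 48045153. The windows of Nr4a1 and Nr4a2 were rich in G and C, at 74.4% and 80.0%, and that of Nr4a3 was at 63.6%, against a median of 52.4% over all windows. The part of base composition in these counts was not tested.

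The summits lay close to CRE cores in both libraries. At Nr4a1 the summit was 2 bp from the middle base of the last core in vehicle and 0 bp from it in TAMo. At the upstream start of Nr4a2 it was 5 bp and 12 bp from the first core. At Nr4a3 the nearest core was 1 bp from the vehicle summit, and a neighbouring core was 2 bp from the TAMo summit. A match of letters describes the sequence and does not show that a factor was bound.

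In all, 12 motifs were searched on both strands in the same 250 bases. The full CRE TGACGTCA, which contains the core on both strands, was in none of the 3 windows and in 1.58% of all windows. No window of the 3 genes held the NBRE AAAGGTCA, AP-1 TGANTCA, RUNX TGTGGT, ETS GGAAGT, EGR GCGTGGGCG, the NF-kB motif or the narrow SRF and MEF2 boxes, which were in 1.33%, 6.77%, 14.0%, 19.8%, 0.529%, 0.363%, 1.41% and 0.516% of all windows. The wider form of the MEF2 motif, which lets the outer bases vary and was added after the sequences were seen, was found once in the Nr4a2 window and in 2.83% of all windows. The NFAT core GGAAA was found once in the Nr4a2 window, and 55.8% of all windows held it.

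Levels below are read coverage at a summit, recovered from the authors' fold enrichment and p-value, and also that coverage divided by the library's own background of 4.71 reads in vehicle and 5.80 reads in TAMo. Ratios are log2 of TAMo over vehicle after this division, with 95% exact binomial intervals that cover counting error only. Over all 103828 regions with a peak in both lists and whole reads, the median log2 ratio was 0.28 with quartiles of −0.12 and 0.89. Promoter regions alone had a median of 0.05 and distal regions one of 0.37, so a ratio of 0 lies below the middle of all regions. Of 10 T cell marker genes, all had a promoter peak in both libraries, with summed scaled coverage of 1044 in each. Of 13 myeloid marker genes, 3 had one in vehicle and 7 in TAMo, with summed scaled coverage of 109 and 200; Lyz2, Ly6c2, Csf3r, S100a8, S100a9 and Ccr2 had none in either. Of 4 B cell markers, 1 had a promoter peak in vehicle and 2 in TAMo. The part of such cells in the values below was not tested.

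The start sites of all 3 genes were open in both cultures, and none differed by 2-fold or more. Nr4a1 (ENSMUSG00000023034, chromosome 15, plus strand) has start sites at 101254269 and 101266846. At the downstream start, which is the RefSeq start, coverage reached 714 reads in vehicle and 753 in TAMo, or 152 and 130 times the library background. The log2 ratio was −0.23 (−0.38 to −0.08). At the upstream start the strongest summits had 259 reads in vehicle and 188 reads in TAMo, a log2 ratio of −0.76 (−1.04 to −0.49). These 2 summits lay 349 bp and 160 bp before the start. Compared at the same place, the one 349 bp before the start had 259 and 170 reads (−0.91, −1.20 to −0.63) and the one 164 bp before it had 187 and 188 reads (−0.29, −0.59 to 0.01). TAMo coverage at the upstream Nr4a1 start was thus lower at the first of these summits beyond counting error, and the interval of the second included 0.

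Nr4a2 (ENSMUSG00000026826, chromosome 2, minus strand) has start sites at 57124003, 57115038 and 57113072. The most upstream start had 419 vehicle reads and 539 TAMo reads at its summit, a log2 ratio of 0.06 (−0.13 to 0.25). At the middle start it was 657 and 761 reads (−0.09, −0.24 to 0.06). At the most downstream start it was 248 and 312 reads (0.03, −0.22 to 0.28). The intervals of these 3 strongest summits included 0. Compared at the same place, a weaker summit 799 bp after the middle start had 301 and 237 reads (−0.65, −0.90 to −0.40). Another, 519 bp after it, had 597 and 650 reads (−0.18, −0.34 to −0.02). The remaining paired summits within 1 kb of a Nr4a2 start had intervals that included 0.

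Nr4a3 (ENSMUSG00000028341, chromosome 4, plus strand) has 1 start site, at 48045153. Its summit had 636 vehicle reads and 933 TAMo reads, a log2 ratio of 0.25 (0.10 to 0.40), the highest of the strongest start-site peaks of the 3 genes. A second summit 337 bp before the start had 563 and 763 reads (0.14, −0.02 to 0.30). Against all shared regions, centred on their median, the promoter ratios of Nr4a1, Nr4a2 and Nr4a3 were −0.50, −0.21 and −0.03. Of the shared regions, 86199 of 103828 were distal. Centred on the median of promoter regions, the promoter ratios were −0.27, 0.01 and 0.20 in the same order. The sign at Nr4a2 and Nr4a3 thus turned against all shared regions and not against promoter regions, and that at Nr4a1 turned against neither. The Nr4a2 interval already included 0.

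**Figure D1:**
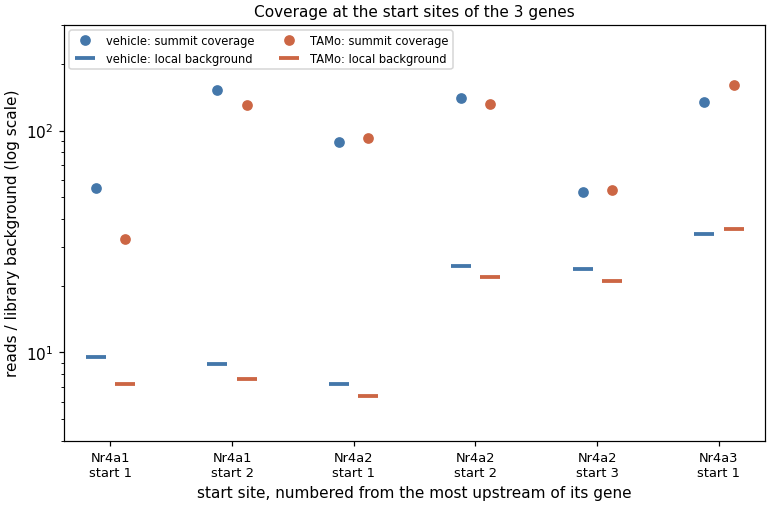
Coverage at the 6 start sites of the 3 genes, divided by each library's background, on a log axis. Points are the strongest summit within 1 kb of a start and bars are the local background around it, with vehicle in blue and TAMo in orange. Nr4a3 has the highest local background, at 34.2 in vehicle and 35.8 in TAMo. No start site differs by 2-fold between libraries.

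Ordered by the promoter peak with the highest −log10 q of each gene, vehicle coverage ran from Nr4a1 (714 reads, 95% Poisson interval 663 to 768) through Nr4a3 (636, 588 to 687) to Nr4a2 (419, 380 to 461). In TAMo the order was Nr4a3 (933, 874 to 995), Nr4a1 (753, 700 to 809) and Nr4a2 (539, 494 to 586). The vehicle intervals of Nr4a1 and Nr4a3 overlapped, and those of the TAMo library did not. Among 12899 gene promoters with overlapping peaks, vehicle coverage of Nr4a1, Nr4a3 and Nr4a2 stood at percentiles 80.1, 72.7 and 47.6, and TAMo coverage at 70.1, 83.0 and 49.8. By coverage alone the Nr4a2 peak was that of the middle start, whose 657 vehicle reads and 761 TAMo reads both lay between those of the other 2 genes, which placed Nr4a2 above Nr4a3 in vehicle and above Nr4a1 in TAMo.

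The Nr4a3 promoter stood in one of the most open stretches around any promoter. The local background is the peak caller's estimate of coverage in the sequence around a summit, over a width that the labels do not give. The Nr4a3 start had 161 reads of it in vehicle and 208 in TAMo, or 34.2 and 35.8 times the library background. That placed Nr4a3 at rank 31 of 12899 gene promoters in vehicle and rank 12 in TAMo. The middle Nr4a2 start was also in open surroundings, at 116 and 126 reads, whereas the upstream Nr4a2 start (33.9 and 36.9 reads) and the downstream Nr4a1 start (41.8 and 43.8 reads) stood nearer to the medians over all promoters, 30.5 and 37.0 reads. In log2 units, local background differed between libraries by 0.06 at Nr4a3, −0.18 at the upstream Nr4a2 start and −0.23 at the downstream Nr4a1 start. Over all promoters the quartiles of that difference were −0.19 and 0.14.

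**Figure D2:**
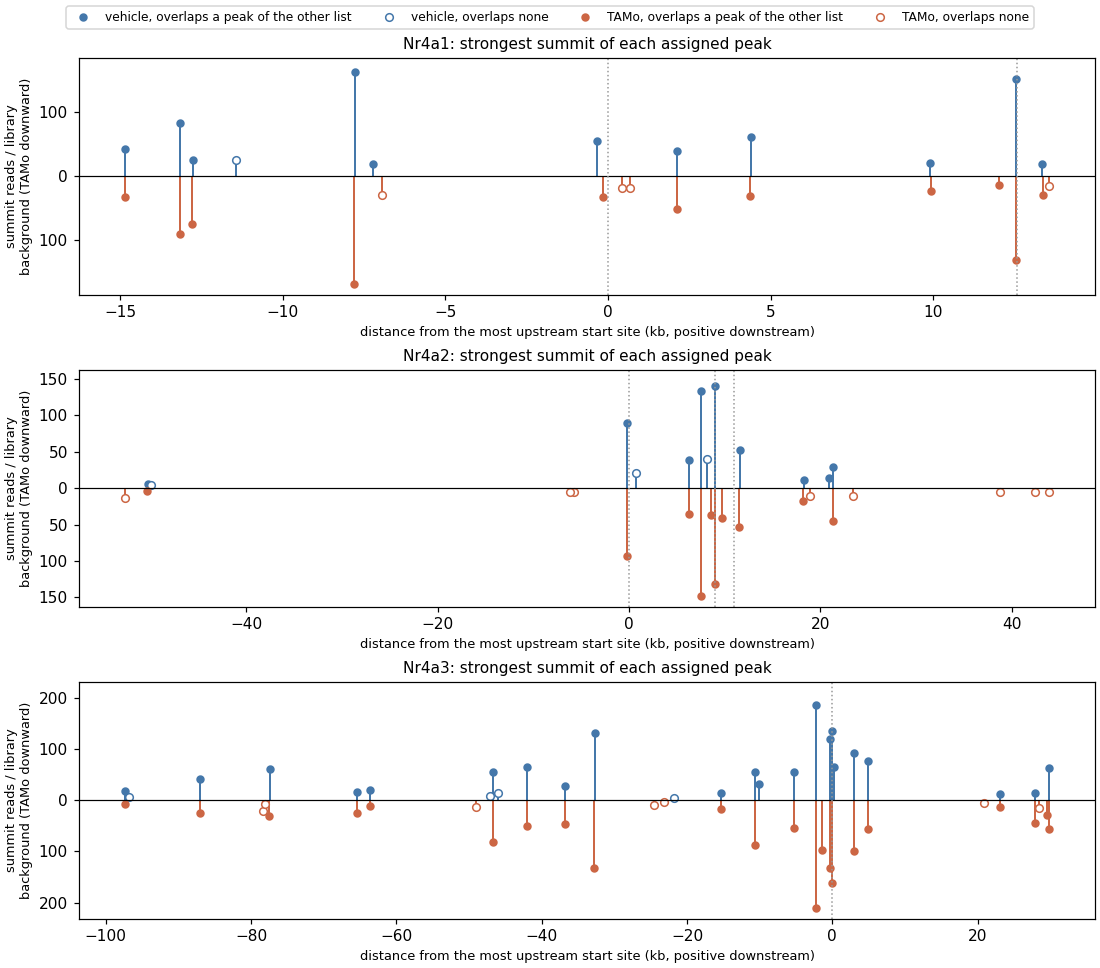
Strongest summit of each peak assigned to Nr4a1, Nr4a2 and Nr4a3, with vehicle upward in blue and TAMo downward in orange, as reads divided by the library background. The x axis is the distance from the most upstream start site in kb, dotted lines are start sites, and open circles are peaks that overlap no peak of the other list. The tall peaks stand at the same places in both libraries and the open circles are mostly short.

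Over all regions shared by both lists, start sites included, the 3 genes had few that were at least 2-fold higher in TAMo. Of the 38 shared regions, 2 were at least 2-fold higher in TAMo (5.26%), against 21.9% of all shared regions. At least 2-fold lower were also 2 (5.26%), against 3.19% of all shared regions. The median log2 ratio was 0.10 over 10 regions at Nr4a1, 0.04 over 8 at Nr4a2 and 0.13 over 20 at Nr4a3, each under the 0.28 of all shared regions. Of the 38, 11 lay above that median. The 2 summits of a shared region were 10.5 bp apart in the median and within 30 bp in 36 of 38 regions. Shared regions have overlapping peaks by definition, which itself limits that distance.

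Upstream of Nr4a1, 1 site stood past 2-fold in TAMo and the shared sites around it did not. Its summit lay 12780 bp before the upstream start, between genes (chromosome 15, 101241363 to 101241614), and had 121 reads in vehicle and 430 reads in TAMo, a log2 ratio of 1.53 (1.23 to 1.83). Local background around it was 51.3 reads and 76.2 reads, a scaled log2 difference of 0.27. The neighbouring peak, 13164 bp before the start, had 386 and 526 reads (0.14, −0.05 to 0.34). On the gene side, 11424 bp before the start, a vehicle peak of 117 reads overlapped no TAMo peak and so has no ratio. The strongest site of the Nr4a1 locus, 7796 bp before the upstream start (101246217 to 101247151), had 761 and 974 reads (0.05, −0.08 to 0.19). The next protein-coding start site, that of Grasp, was farther from the 7796 bp site, at 22285 bp, and 17301 bp from the site at 12780 bp. Assignment by distance does not show which gene a site acts on.

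Other Nr4a1 regions were lower in TAMo. An intronic site 4396 bp after the upstream start (101258295 to 101258974) had 284 reads in vehicle and 182 in TAMo, a log2 ratio of −0.94 (−1.22 to −0.67), just short of 2-fold. A site 14850 bp before the start had 197 and 192 reads (−0.34, −0.63 to −0.05). By contrast the intronic site 2135 bp after the start had 183 and 295 reads (0.39, 0.12 to 0.66), and a peak 788 bp after the downstream start had 86 and 168 reads (0.66, 0.28 to 1.06). With ratios centred on all shared regions, 2 Nr4a1 regions were at least 2-fold lower, those at the upstream start (−1.04) and at 4396 bp (−1.22).

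Nr4a2 had the fewest shared regions of the 3 genes, 8, and the narrowest range over the strongest summits of those regions. Its ratios ran from −0.42 to 0.66, with none at 2-fold in either direction. Its intronic peak 1397 bp before the middle start was as strong as a promoter, with 626 reads in vehicle and 860 reads in TAMo (0.16, 0.01 to 0.31). The 2 regions that stood higher lay beyond the 3′ end of the gene. One, 10361 bp after the most downstream start (57102345 to 57103271), had 139 and 262 reads (0.61, 0.31 to 0.92). The other, 7305 bp after it, had 53 and 103 reads (0.66, 0.16 to 1.16). Distal sites farther away were weak: the shared one 50333 bp upstream had 25 and 23 reads, and its interval ran from −1.31 to 0.45.

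Nr4a3 had the most peaks of the 3 genes, 26 in vehicle and 29 in TAMo, and its distal ratios ran in both directions. The medians over all genes were 3 and 5 peaks, and Nr4a3 stood at percentiles 97.7 and 96.6. The next protein-coding start, that of Stx17, was 80099 bp from the summit 337 bp before the Nr4a3 start. The part of gene spacing in these counts was not tested. The site with the most reads lay 2246 bp before the start, with 870 reads in vehicle and 1225 reads in TAMo (0.19, 0.06 to 0.32). A distal site 32748 bp before the start had 613 and 766 reads (0.02, −0.14 to 0.17). By −log10 q, which sets a summit against its local background, that site was the strongest of the locus, at 511 in vehicle and 646 in TAMo, and the site at 2246 bp had 351 and 549.

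The Nr4a3 site with the highest ratio lay in an intron, 27924 bp after the start (chromosome 4, 48072929 to 48073225). It had 70 reads in vehicle and 260 reads in TAMo, a log2 ratio of 1.59 (1.20 to 1.99). Ratios above 0 but short of 2-fold were found 10611 bp before the start, with 256 and 507 reads (0.68, 0.46 to 0.91), and 36838 bp before it, with 134 and 269 reads (0.70, 0.40 to 1.01). A site 46742 bp before the start had 262 and 477 reads (0.56, 0.34 to 0.78). Local background at the intronic site was 18.6 reads and 31.7 reads, a scaled log2 difference of 0.47, and at the other 3 sites it differed by −0.14, −0.03 and 0.00. The 4 sites lay on both sides of the promoter.

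Of the 5 shared sites farthest upstream of Nr4a3, 4 were lower in TAMo and 1 was higher, a grouping made after the ratios were seen. The site 77465 bp before the start (47967471 to 47968062) had 287 and 176 reads, a log2 ratio of −1.01 (−1.29 to −0.73). The site at 97369 bp had 87 and 46 reads (−1.22, −1.77 to −0.69), and those at 87008 bp and 63695 bp had ratios of −0.68 and −0.86. The site at 65460 bp stood higher, with 73 and 150 reads (0.74, 0.32 to 1.16). Local background was also lower in TAMo at the 4 lower sites and at the higher site. Its scaled log2 differences were −0.51 at 97369 bp, −0.87 at 87008 bp, −0.44 at 77465 bp and −0.37 at 63695 bp. At the higher site the difference was −0.37. TAMo local background at 97369 bp and 87008 bp equalled the library background of 5.80 reads. At 87008 bp the authors' fold over local background was 20.1 in vehicle and 21.9 in TAMo. That fold was lower in TAMo at 97369 bp (11.4 and 6.91), 77465 bp (19.035 and 12.748) and 63695 bp (11.7 and 8.32). At the higher site it was 9.78 in vehicle and 20.8 in TAMo. The TAMo list also had 2 peaks with no vehicle overlap in this stretch, at 78402 bp and 78113 bp, with 127 and 41 reads. An intronic site 4877 bp after the start was also lower, with 357 and 328 reads (−0.42, −0.65 to −0.20).

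**Figure D3:**
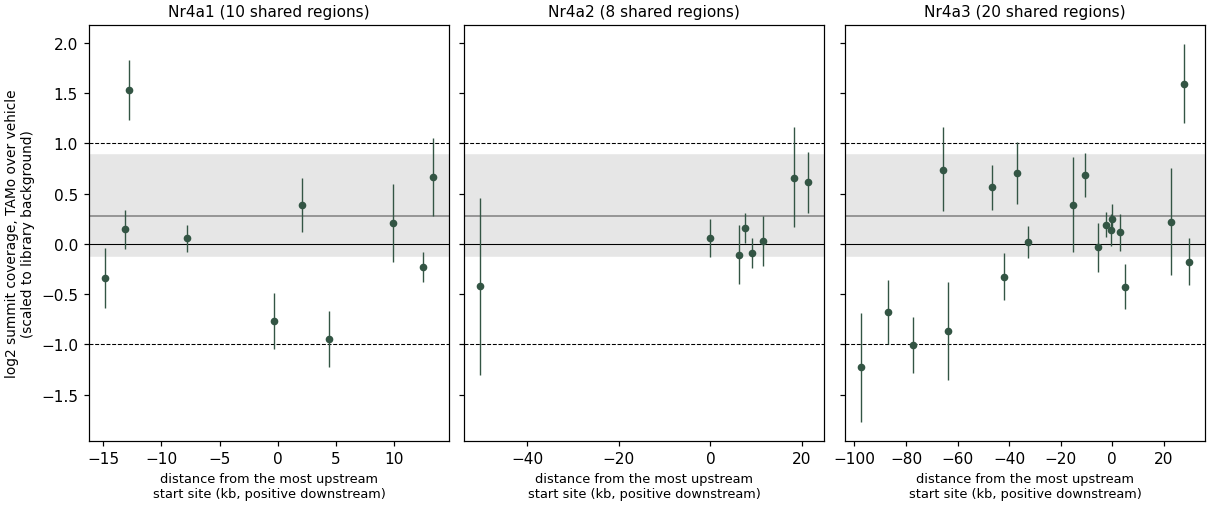
Log2 ratio of summit coverage, TAMo over vehicle and scaled to library background, for the 38 shared regions of the 3 genes against distance from the most upstream start site in kb. Bars are 95% exact binomial intervals, the grey line and band are the median (0.28) and quartiles of all shared regions, and dashed lines mark 2-fold. Only 1 Nr4a1 region and 1 Nr4a3 region lie above the upper dashed line.

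Peaks found in 1 library only were weak. Of the 62 TAMo peaks, 19 overlapped no vehicle peak (30.6%, exact interval 19.6 to 43.7%), against 39.5% of all TAMo peaks. Of the 50 vehicle peaks, 8 overlapped no TAMo peak (16.0%, 7.17 to 29.1%), against 12.5% of all vehicle peaks. The intervals treat peaks as independent draws, which neighbouring peaks of 1 locus are not, so the shares were not tested against those of all peaks. The TAMo-only peaks had 21 to 167 reads with a median of 60, against a median of 269 reads in the peaks that overlapped a vehicle peak. The vehicle-only peaks had 18 to 187 reads with a median of 50, against 252 reads. All 8 vehicle-only peaks and 15 of the 19 TAMo-only peaks were below the median strength of their list. Coverage of the other library at these places was not measured, and the absence of a peak is only the absence of a call.

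By gene, 4 TAMo-only peaks belonged to Nr4a1, 8 to Nr4a2 and 7 to Nr4a3, and 1, 3 and 4 vehicle-only peaks belonged to them in the same order. The strongest by −log10 q was a TAMo-only peak 78402 bp before Nr4a3 (47966531 to 47966904, 127 reads), next to the site at 77465 bp that was lower in TAMo. The Nr4a1 peak with the most reads, 167, lay 6946 bp before the upstream start, beside the strongest site of that locus. At Nr4a1, 2 further TAMo-only peaks of 111 and 107 reads lay 427 bp and 664 bp after the upstream start. At Nr4a2 the vehicle-only peaks of 187 and 99 reads lay 854 bp before the middle start and 756 bp after the upstream one, beside wider peaks of both libraries.

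A list of 51 genes around the NR4A receptors was read in the same way. It covered calcineurin, NFAT, MEF2, CREB, AP-1 and related factors upstream, other genes switched on by the receptor, the RXR partners, and genes tied to NR4A in T cells. The X-linked gene Foxp3 was left aside, which left 50. Over the 43 with overlapping promoter peaks the median log2 ratio was 0.08, and 27 were above 0 and 16 below. None was at least 2-fold higher, against 3.58% of 12899 gene promoters, and 1 was at least 2-fold lower, against 0.768%. The median over those 12899 was 0.03, with quartiles −0.13 and 0.22. Among those promoters the ratios of Nr4a1, Nr4a2 and Nr4a3 stood at percentiles 15.6, 55.0 and 77.6. With a promoter window of 2.5 kb on either side, tried after the data were seen, 41 list genes had a ratio and the median was 0.07. At least 2-fold higher was then Prkd2, which encodes a protein kinase D, with 420 and 1125 reads (1.12, from 0.37), against 4.34% of 13164 gene promoters. At least 2-fold lower was Rxra, which encodes an RXR partner, with 166 and 98 reads (−1.06; its peaks did not overlap in the narrower window), against 0.706%.

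The gene past 2-fold in the 1 kb window was Mef2c, which encodes a MEF2 transcription factor. Its promoter summit had 263 vehicle reads and 131 TAMo reads, a log2 ratio of −1.31 (−1.62 to −1.0), and −0.79 (263 and 188 reads) with the wider window. The next in size was Havcr2, which encodes the inhibitory receptor TIM-3, with 296 and 706 reads (0.95, 0.75 to 1.15). Nfatc2, an NFAT factor gene activated through calcineurin, had 404 and 783 reads (0.65, 0.48 to 0.83). Lag3, an inhibitory receptor gene, had 606 and 522 reads (−0.52, −0.69 to −0.35). Egr3, an early response gene, had 411 and 372 reads (−0.45, −0.65 to −0.24). Pdcd1, which encodes PD-1, had 255 and 236 reads at its start (−0.41, −0.68 to −0.15) and 397 and 514 reads (0.07) at the stronger peak found with that window. The strongest Tox promoter summits, of 294 and 332 reads, were in different peaks, so no ratio is given. The median ratio over shared regions of Tox, a factor gene of exhausted T cells, was −0.23 in 18 regions. Of these, 5 were at least 2-fold higher in TAMo, against 21.9% of all shared regions, and 1 at least 2-fold lower, against 3.19%.

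**Figure D4:**
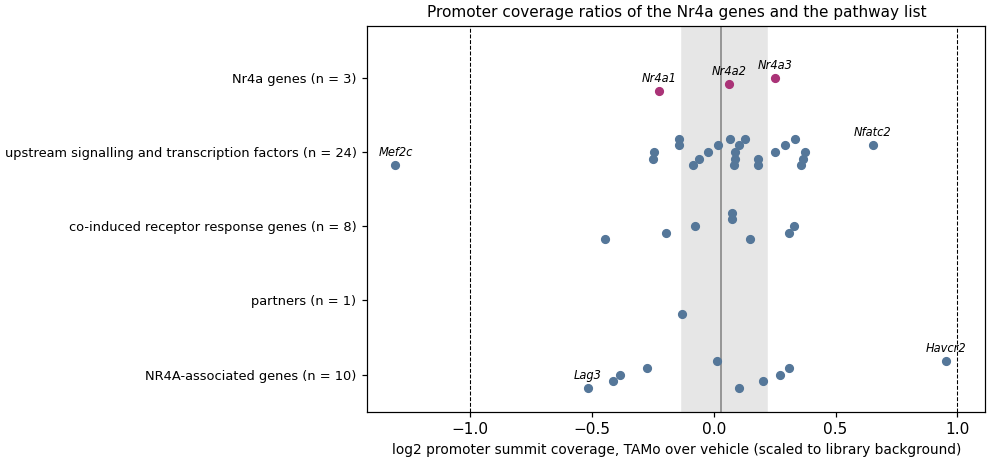
Log2 ratio of promoter summit coverage, TAMo over vehicle and scaled to library background, for the 3 Nr4a genes and the 43 list genes with overlapping promoter peaks. Each point is a gene, the grey line and band are the median and quartiles of 12899 gene promoters, dashed lines mark 2-fold, and spread within a row only separates points. The Nr4a genes lie between −0.23 and 0.25, and Mef2c alone is past a dashed line.

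Genes with the most similar chromatin pattern were ranked by distance over 5 measures from the 2 libraries: scaled promoter coverage in each, peak number in each and the median ratio over shared regions, each divided by its SD over 12505 genes. Nearest to Nr4a1 were Stk32c (distance 0.14), Btg2 (0.17) and Mark3 (0.17). Nearest to Nr4a2 were Supt4a (0.21), Rdx (0.23) and Spen (0.24). Nearest to Nr4a3 were Wasf2 (0.20), Kmt2e (0.21) and Asph (0.22). The 3 receptors were not each other's nearest genes, but each lay closer to the others than to the median gene. From Nr4a1, Nr4a2 ranked 455 (0.71) and Nr4a3 ranked 2135 (1.32), against a median distance of 2.37. From Nr4a2, Nr4a1 ranked 336 and Nr4a3 ranked 2230 (1.39), against 2.35. From Nr4a3, Nr4a1 ranked 943 and Nr4a2 ranked 1072, against 3.32.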

How the data were processed

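ATAC-seq was measured in 1 vehicle library and 1 TAMo library. Per the submitters' processing notes, Trimmomatic 0.36, Bowtie2 and MACS2 were used with mm10. Settings of these tools are not stated in the labels. The deposited narrowPeak lists hold, for each summit, a score, the authors' fold enrichment, a ratio, and the authors' −log10 p and −log10 q, which were called in each library separately. Rows that share an interval were counted as 1 peak with the summit of highest −log10 q.

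Summit coverage was recovered as the whole number of reads for which the Poisson tail and the fold both hold, within 1% of a step; 30 vehicle rows and 48 TAMo rows gave none. The recovery was checked on simulated data. The total number of reads is unknown. Coverage was divided by each library's commonest background, 4.71 and 5.80 reads (ratio 1.23, log2 0.30). PCR reads without molecular identifiers are not independent molecules, so 95% exact binomial (ratios, shares) and Poisson (reads) intervals cover counting error only. No listed peak had under 13 reads (vehicle) or 14 reads (TAMo). Peaks overlapping by 1 bp were called shared, and called means 2-fold or more (log2 of 1). A promoter is the 1 kb before and after a start site. Start sites came from GENCODE M21 (mm10), and chromosomes 1 to 19 were used. Python 3.11.15, numpy 2.4.6, pandas 2.3.3 and scipy 1.17.1 were used.

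With 1 library per group no test was made. The genes, gene lists, markers and motifs were chosen with earlier results of these data known. All peaks of the 3 genes could be described, in full their strongest promoter peaks, 1-library peaks and shared regions past 2-fold; from the pathway list, the 6 largest promoter ratios, Tox, Pdcd1 and Havcr2 were named. Sites short of 2-fold, Prkd2 and Rxra were chosen after their values were seen. Motifs were searched in RefSeq promoter windows only. Alternatives were the distance limit, peak strength, list length, overlap, promoter window, scaling and the summit compared.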

Additional observations from a re-analysis of the deposited data

How the results depend on the processing

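No paired analysis was possible because each group was 1 library. With only peaks of −log10 q of at least 10, vehicle-only peaks were fewer. They were 0 at Nr4a1 (from 1), 1 at Nr4a2 (from 3) and 1 at Nr4a3 (from 4). Nr4a2 had 7 vehicle peaks (from 12), and Nr4a3 had 4 TAMo-only peaks (from 7), since weak peaks leave the lists. TAMo-only peaks rose to 5 at Nr4a1 (from 4) and 9 at Nr4a2 (from 8), where overlapping vehicle peaks left their list. The Nr4a1 median ratio was then −0.09 (from 0.10). When only as many TAMo peaks were kept as the vehicle list holds, Nr4a2 had 10 TAMo peaks (from 18), 3 of them TAMo only (from 8), and 5 vehicle-only peaks (from 3), and Nr4a3 had 4 TAMo-only peaks (from 7). Centred on all shared regions, which lowers every ratio by 0.28, Nr4a1 had 2 regions at least 2-fold lower (from 0). The medians were then all below 0, at −0.18 at Nr4a1, −0.23 at Nr4a2 and −0.15 at Nr4a3. The centred promoter ratios were −0.50, −0.21 and −0.025 at Nr4a1, Nr4a2 and Nr4a3. The 2.5 kb promoter window, applied to the pathway list after seeing the data, gave 1 list promoter at least 2-fold higher (Prkd2, from 0) and 1 lower (Rxra in place of Mef2c), and it moved 6 list ratios out of their intervals, since another peak can become the strongest. For the 3 Nr4a genes, the 50 kb limit, the 2.5 kb window, centring on promoter regions and a 50% overlap moved no result recomputed under them beyond its interval or 1.5 times its count. The same held for summits paired within 100 bp and for the strongest promoter summit by coverage, both chosen after seeing the data. Counts of regions past 2-fold were not recomputed under the 50 kb limit. Both Nr4a3 regions at least 2-fold lower, at 77465 bp and 97369 bp, lie beyond that limit. Coverage of a library where it has no peak was not measured.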
